A study of Rattus norvegicus with 9 samples.

Results

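Fibroblasts, mural cells and endothelial cells are the non-neural cells of the meninges and blood vessels of the spinal cord. Fibroblasts lay down the extracellular matrix, mural cells (pericytes and vascular smooth muscle cells) wrap the vessel wall and contract, and endothelial cells line the vessel and seal it with their junctions. Fibroblast and smooth muscle genes are also typical of bone marrow mesenchymal stem cells (BMSCs), the cells that gave the exosomes used here, and several of the matrix genes are also made by astrocytes and neural progenitors.

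A list of 38 genes named for these cell types, with the collagens left out, was looked up in the gene counts of neural stem cells (NSCs) cultured with BMSC exosomes. Of the 38 genes, 37 had a row among the 23953 genes of the count table, and Tek was not analysed here. By role they comprised 3 leucine-rich matrix proteins, 6 elastic fibre and microfibril genes, 4 adhesive glycoproteins, 5 genes for matrix proteases, a collagen chaperone and IGF-binding proteins, 5 mesenchymal transcription factors, 8 mural and smooth muscle genes, and 7 endothelial genes.

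The NSCs came from the spinal cord of neonatal rats and were kept in differentiation medium with 2% serum (FBS), which all groups shared. The Con group received the medium alone. The Exo group also received exosomes of rat BMSCs, which carried an empty lentiviral vector according to the study's methods. The pLV-Exo-Wnt5a group received exosomes of BMSCs that overexpressed rat Wnt5a from a lentiviral vector, so Wnt5a was raised in the donor cells and not by a vector in the NSCs. Each group had 3 RNA-seq libraries, and the labels gave all 9 libraries the same batch. The labels do not say whether libraries of a group came from separate cultures or animals, so the p-values measure only the spread between these libraries. In bulk RNA, fewer cells of a type and less RNA per cell cannot be told apart.

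Total counts ranged from 32765138 to 40427647 per library. Levels are given in CPM, counts scaled to a common library size with TMM factors over the 9 libraries, with the mean ± SD over 3 libraries. A library with no count of a gene could still hold up to 3 counts' worth of it, 0.0727 to 0.0913 CPM at these depths, a bound on counting error only. Although the cells are labelled as rat, the table lists mouse symbols and mouse gene numbers, and whether this lowered the count of any gene was not tested. Without gene lengths, levels were compared between libraries and not between genes. Of the 37 genes, 24 had more than 3 counts in every library and 8 had a count of 0 in at least 1 library.

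Genes of the same named cell type were counted at very different depths. Pdgfrb had 382 to 773 counts per library, the endothelial receptor gene Kdr 138 to 294 and the fibroblast gene Dcn 73 to 157. In contrast Cdh5, the adhesion protein of endothelial junctions, had 1 count over all 9 libraries. The pericyte potassium channel gene Kcnj8 was at 0 in 8 libraries, and the fibroblast matrix genes Lum and Postn never exceeded 9 counts. With some defining genes well counted and others at or near 0, the list is described by its genes, and their levels are not read as cells of the named types.

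Each pair of groups was tested with the quasi-likelihood method of edgeR, with p-values adjusted over all genes tested, and a gene was called at an adjusted p under 0.05. Filtering of low counts left 25 of the genes in Exo against Con and 24 in each of the other comparisons. None of them was called by edgeR. In Exo against Con the count was 0 of 25, where 0.00664% of the 15070 genes tested were called. In pLV-Exo-Wnt5a against Exo it was 0 of 24, with 0.436% of 15132 genes called, and in pLV-Exo-Wnt5a against Con 0 of 24, with 0.0862% of 15089 genes called. DESeq2, run on the same pairs of groups, called 2 of the 20 genes to which it gave an adjusted p in Exo against Con, 3 of 24 in pLV-Exo-Wnt5a against Exo and 2 of 25 in pLV-Exo-Wnt5a against Con. Of all genes with an adjusted p it called 1.71%, 2.64% and 0.478%. Without the low-count filter edgeR also called 2, 3 and 2 of the genes, and 1.93%, 1.71% and 0.372% of all genes.

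At an unadjusted p under 0.05, which is not corrected for the number of genes, 6 of the 25 genes differed between Exo and Con, all of them lower in Exo. Over all genes tested, 14.9% had such a p and 6.01% had it with a lower level. Between pLV-Exo-Wnt5a and Exo the count was 8 of 24, of which 7 were higher in pLV-Exo-Wnt5a, against 12% of all genes, 5.07% higher and 6.91% lower. Between pLV-Exo-Wnt5a and Con it was 5 of 24, with 2 higher and 3 lower, against 8.35% of all genes, 4.2% higher and 4.15% lower. The median log2 fold change (log2FC) of the tested genes was −0.11 in Exo against Con, 0.15 in pLV-Exo-Wnt5a against Exo and 0.09 in pLV-Exo-Wnt5a against Con, beside 0.00 over all genes tested in each. These medians depended on single libraries. With Exo replicate 2 left out, the first was −0.01 and the second 0.07. With pLV-Exo-Wnt5a replicate 3 left out, the second was 0.08 and the third 0.06, and with Con replicate 3 left out the third was 0.01. The first and the second comparison share the Exo libraries, and the third shares libraries with both.

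Without any test, the 3 Exo libraries lay below all 3 Con libraries for 6 genes and above them for 0, where 12.4% and 10.9% of all genes did so. The pLV-Exo-Wnt5a libraries lay above all Exo libraries for 5 genes and below them for 0, against 7.5% and 8.9% of all genes. They lay above all Con libraries for 4 genes and below them for 4, against 7.67% and 9.41%.

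**Figure D1:**
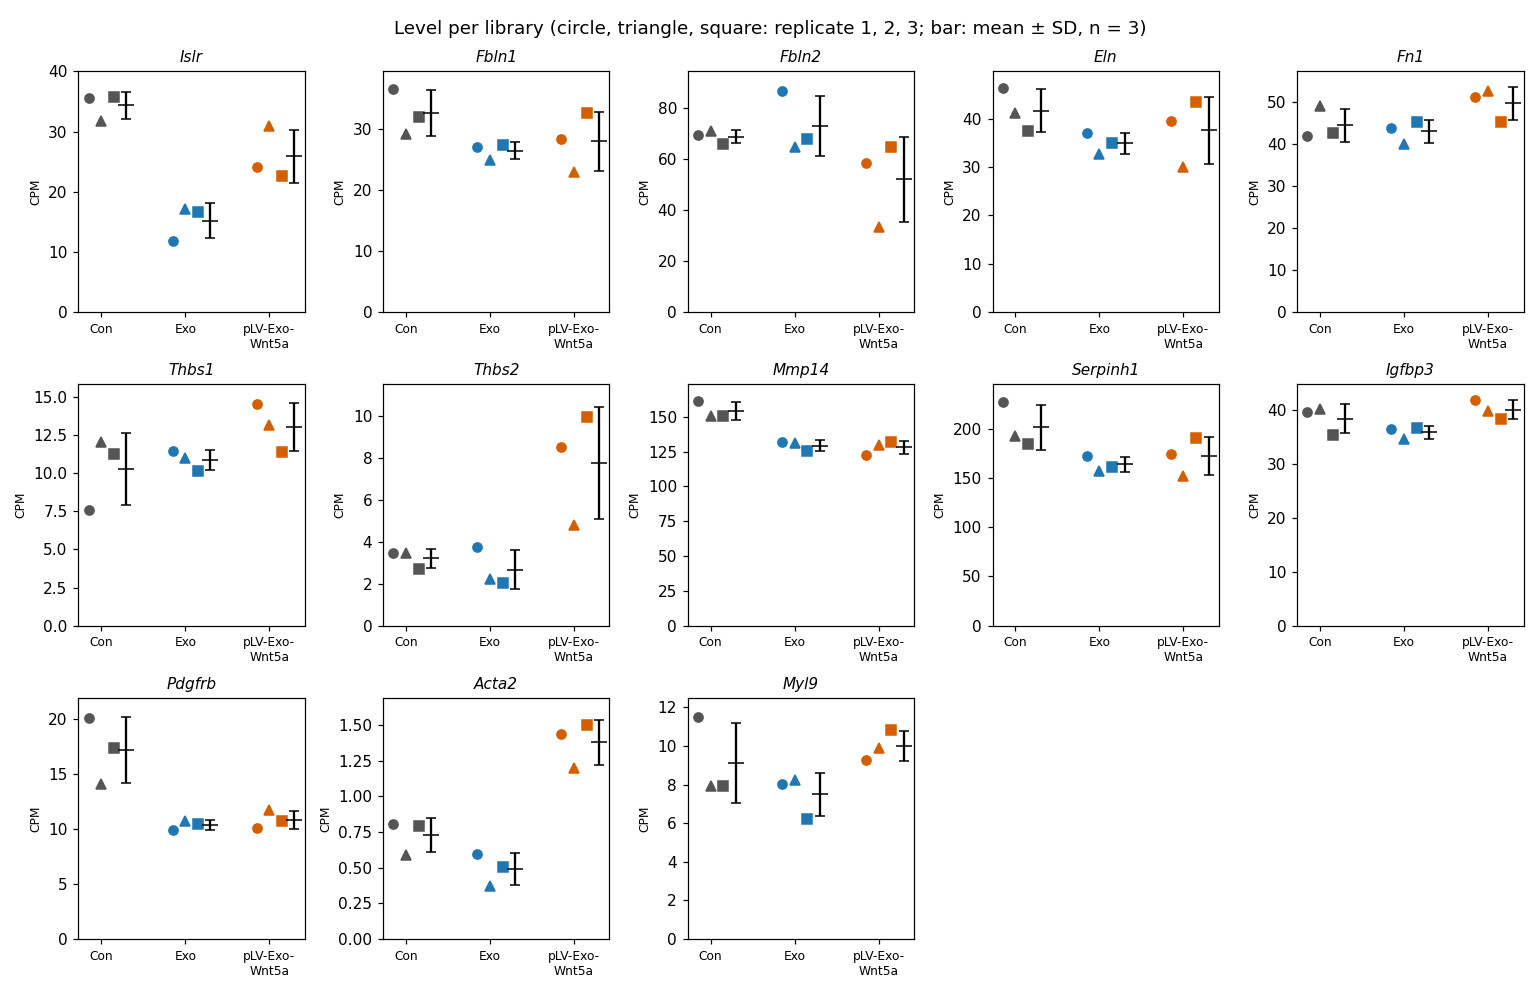
Levels in CPM (vertical axis, linear from 0) of the 13 genes with an unadjusted p under 0.05 in at least 1 comparison, by group (horizontal axis). Points are single libraries and black bars the mean ± SD of 3. Islr lay between 11.9 and 17.1 CPM in Exo, below every library of the other groups, and Thbs2 and Acta2 were highest in the 3 pLV-Exo-Wnt5a libraries.

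Among the leucine-rich matrix proteins, Islr stood apart between the groups. Islr (mouse NCBI gene number 26968) encodes a secreted protein with leucine-rich repeats that is used as a marker of mesenchymal stromal cells. Its level was 35.6, 31.8 and 35.7 CPM in Con, 11.9, 17.1 and 16.7 CPM in Exo, and 24.1, 30.9 and 22.7 CPM in pLV-Exo-Wnt5a. No 2 groups overlapped, with Con highest, Exo lowest and pLV-Exo-Wnt5a between them.

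In Exo against Con the log2FC of Islr was −1.18 ± 0.15 (SE), 2.27-fold lower in Exo, with an adjusted p of 0.0655 by edgeR. It was called by DESeq2 (adjusted p = 8.89e-10) and, by edgeR, on all 9 libraries (0.0288), without the low-count filter (9.95e-06), without Con replicate 1 (0.0337) and without Con replicate 3 (0.0183). Over all the settings tried, its adjusted p ran from 8.89e-10 to 0.518. In pLV-Exo-Wnt5a against Exo the log2FC was 0.78 ± 0.16, with an adjusted p of 0.0681 by edgeR and 0.000453 by DESeq2, in a range of 0.000453 to 0.231. In pLV-Exo-Wnt5a against Con it was −0.42 ± 0.13, with an adjusted p of 0.497 by edgeR.

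Microglia and macrophage markers, like Islr, had their lowest summed level in Exo. The summed level of Aif1, Cx3cr1, Csf1r, Ptprc and Itgam was 3.83 to 5.84 CPM in Con, 1.73 to 2.70 CPM in Exo and 4.21 to 5.40 CPM in pLV-Exo-Wnt5a. All 4 of the markers that were tested were lower in Exo than in Con and higher in pLV-Exo-Wnt5a than in Exo, 2 of them with an unadjusted p under 0.05 in each comparison, where 6.01% of all genes were lower and 5.07% higher. In pLV-Exo-Wnt5a against Con, where Islr was lower, 3 of these 4 markers were higher and 1 lower, with a median log2FC of 0.19. The lower marker had an unadjusted p under 0.05, beside 4.15% of all genes with such a p and a lower level. By edgeR the smallest adjusted p of the 4 markers was 0.265 in Exo against Con and 0.0640 in pLV-Exo-Wnt5a against Exo. Ptprc, the leukocyte antigen CD45, had at most 6 counts in any library and 0 in some. The part of such cells in the result for Islr was not tested.

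The other leucine-rich genes varied less or were barely counted. Dcn, the small proteoglycan decorin that binds collagen fibrils, ranged from 1.89 CPM (Con replicate 1) to 3.98 CPM (Exo replicate 1), and the groups overlapped. Lum, the related proteoglycan lumican, had 25 counts over the 9 libraries, between 0 and 9 each, and was not tested.

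Of the 4 adhesive glycoproteins, 3 were tested, and each had a log2FC above 0 and an unadjusted p under 0.05 in pLV-Exo-Wnt5a against Exo, where 5.07% of all genes did so. None was called by edgeR, and 1 of them, Thbs2, did not overlap between these groups. Thbs2 (mouse NCBI gene number 21826) encodes thrombospondin 2, a matricellular protein that modulates cell-matrix contacts and restrains vessel growth. Its level was 3.48, 3.47 and 2.68 CPM in Con, 3.72, 2.20 and 2.05 CPM in Exo, and 8.50, 4.79 and 9.95 CPM in pLV-Exo-Wnt5a. Con and Exo overlapped, and each pLV-Exo-Wnt5a library lay above the other 6, with replicate 2 nearest to them.

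For Thbs2, pLV-Exo-Wnt5a exceeded Exo by a log2FC of 1.56 ± 0.30 (2.95-fold), with an adjusted p of 0.0543 by edgeR and 2.81e-05 by DESeq2. By edgeR it was called without the low-count filter (0.000107) and with the replicate number as a block. It was also called when pLV-Exo-Wnt5a replicate 2 (0.0111) or Exo replicate 1 (0.0231) was left out. Over all settings its adjusted p ran from 2.81e-05 to 0.292. Against Con the log2FC was 1.26 ± 0.26, with an adjusted p of 0.209 by edgeR and 0.00132 by DESeq2, in a range of 0.000798 to 0.807. Exo and Con differed in Thbs2 by a log2FC of −0.29 ± 0.27, with an adjusted p of 0.600.

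Fn1 and Thbs1 showed smaller differences in the same direction. Fn1, the gene of fibronectin, was at 41.9, 49.0 and 42.6 CPM in Con, 43.8, 40.04 and 45.4 CPM in Exo, and 51.1, 52.6 and 45.3 CPM in pLV-Exo-Wnt5a. Exo and pLV-Exo-Wnt5a overlapped slightly, and the log2FC between them was 0.22 ± 0.08 (edgeR, adjusted p = 0.312).

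Thbs1, the gene of thrombospondin 1, which activates latent TGF-β, was at 7.63, 12.0 and 11.3 CPM in Con, 11.4, 11.0 and 10.2 CPM in Exo, and 14.6, 13.2 and 11.4 CPM in pLV-Exo-Wnt5a. Con replicate 1 was the lowest of all 9 libraries, and the log2FC of pLV-Exo-Wnt5a against Exo was 0.28 ± 0.12 (edgeR, adjusted p = 0.399). Postn, the gene of periostin, a matrix protein of activated fibroblasts, had 0 to 6 counts per library and was not tested.

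Among the 8 mural and smooth muscle genes, Acta2 was highest in the 3 pLV-Exo-Wnt5a libraries and the pericyte receptor Pdgfrb in the 3 Con libraries. Acta2 (mouse NCBI gene number 11475), the smooth muscle α-actin, was at 0.804, 0.591 and 0.791 CPM in Con, 0.594, 0.371 and 0.505 CPM in Exo, and 1.44, 1.20 and 1.50 CPM in pLV-Exo-Wnt5a. These levels rest on 15 to 62 counts per library. Con and Exo overlapped by 1 library each, and all pLV-Exo-Wnt5a libraries lay above the other 6.

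In pLV-Exo-Wnt5a against Exo the log2FC of Acta2 was 1.51 ± 0.35 (2.84-fold), with an adjusted p of 0.102 by edgeR, 0.0171 by DESeq2 and 0.0397 by edgeR without the low-count filter, in a range of 0.0171 to 0.394. Against Con it was 0.91 ± 0.34 (edgeR, adjusted p = 0.534), and Exo against Con gave −0.58 ± 0.40 (0.476). Actin genes are close in sequence and reads can be shared between them, so the count of Acta2 is uncertain to that extent. Such sharing was not tested. Actg2, the other smooth muscle actin, had at most 6 counts in any library.

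The sequence before the start of Acta2 is shown because genes of contractile smooth muscle are known for CArG boxes, the sites that serum response factor binds. It is the window of 250 bases that ends just before the start of the rat gene in RefSeq (GRCr8, chr1:241172504-241172753, minus strand), matched by symbol and written 5′ to 3′ in the direction of transcription. Capitals mark a CArG-type stretch of 10 bases, CC, then 6 letters of which at least 5 are A or T, then GG, a form that reads the same on both strands.

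Acta2: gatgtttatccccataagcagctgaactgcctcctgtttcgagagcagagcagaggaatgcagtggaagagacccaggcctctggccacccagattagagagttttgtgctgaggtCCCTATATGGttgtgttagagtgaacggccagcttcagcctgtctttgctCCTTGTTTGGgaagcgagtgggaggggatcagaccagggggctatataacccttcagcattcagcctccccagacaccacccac

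The matches begin 134 and 84 bases before the start of the gene. Of 27457 rat windows of this length, 7.97% held at least 1 such match and 0.714% held 2 or more. Windows were found for 23 of the 38 genes, and 3 of them held a match, Acta2, Tbx18 and Kdr, with Acta2 the one that held 2. The stricter form, with all 6 inner letters A or T, was in 1.5% of the rat windows and in 0 of these 23. A match is a description of letters, and no binding was measured in these samples.

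Myl9 and Tagln, the myosin light chain and transgelin of smooth muscle, differed less clearly. Myl9 was at 11.5, 7.93 and 7.91 CPM in Con, 8.01, 8.24 and 6.21 CPM in Exo, and 9.29, 9.87 and 10.8 CPM in pLV-Exo-Wnt5a. The last 2 groups did not overlap, with a log2FC of 0.43 ± 0.14 (edgeR, adjusted p = 0.268), whereas Con replicate 1 was the highest library of all. Tagln ranged from 1.36 to 1.85 CPM over the Exo and Con libraries and was at 3.10, 1.34 and 2.88 CPM in pLV-Exo-Wnt5a, where replicate 2 was the lowest of all 9 libraries.

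Pdgfrb (mouse NCBI gene number 18596), the platelet-derived growth factor receptor of pericytes and fibroblasts, was at 20.1, 14.1 and 17.3 CPM in Con, 9.87, 10.7 and 10.5 CPM in Exo, and 10.1, 11.7 and 10.7 CPM in pLV-Exo-Wnt5a. Every Con library lay above all libraries that had received exosomes, and the 2 exosome groups overlapped. The log2FC was −0.74 ± 0.15 in Exo against Con (1.67-fold lower), with an adjusted p of 0.265 by edgeR and 0.00442 by DESeq2. By edgeR it was called without the low-count filter (0.0117) and without Con replicate 3 (0.0499), in a range of 0.00442 to 0.571. In pLV-Exo-Wnt5a against Con it was −0.67 ± 0.16, with an adjusted p of 0.290 by edgeR and 0.0206 by DESeq2, in a range of 0.0206 to 0.980. Between the exosome groups the log2FC was 0.08 ± 0.12 (edgeR, adjusted p = 0.852).

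The remaining mural genes were near the limit of counting and were not tested. Rgs5, a pericyte regulator of G-protein signalling, had 1 to 12 counts per library, Des, the muscle intermediate filament desmin, 1 to 12, and Cnn1, the actin-binding calponin, 1 to 15. Kcnj8 had 8 counts in pLV-Exo-Wnt5a replicate 3 and 0 in the other libraries.

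Of the 6 elastic fibre genes, 5 were well counted in every library. Eln, the gene of elastin, was at 46.2, 41.2 and 37.4 CPM in Con, 37.0, 32.6 and 35.0 CPM in Exo, and 39.5, 29.9 and 43.3 CPM in pLV-Exo-Wnt5a. Exo lay just below Con, with a log2FC of −0.26 ± 0.11 (edgeR, adjusted p = 0.306).

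Fbln1, a fibulin of the basement membrane and elastic fibre, was at 36.6, 29.1 and 32.0 CPM in Con, 27.1, 24.9 and 27.4 CPM in Exo, and 28.4, 23.0 and 32.6 CPM in pLV-Exo-Wnt5a. Exo again lay below Con without overlap, and the log2FC was −0.31 ± 0.12 (edgeR, adjusted p = 0.289).

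Fbln2, the related fibulin 2, was at 69.1, 70.9 and 65.8 CPM in Con, 86.5, 64.6 and 67.8 CPM in Exo, and 58.4, 33.2 and 64.6 CPM in pLV-Exo-Wnt5a. It was the 1 gene with an unadjusted p under 0.05 that was lower in pLV-Exo-Wnt5a than in Exo, with a log2FC of −0.47 ± 0.20 (edgeR, adjusted p = 0.383). That value rested on pLV-Exo-Wnt5a replicate 2, and without it the log2FC was −0.23 (adjusted p = 0.582).

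Fbn1, the microfibril protein fibrillin 1, ranged from 11.7 to 16.9 CPM over the 9 libraries, and Loxl1, an enzyme that cross-links elastin, from 7.75 to 10.8 CPM. The groups overlapped in both. Lox, the lysyl oxidase that cross-links collagen and elastin, had 2 to 23 counts and passed the low-count filter in Exo against Con only, with a log2FC of −0.32 ± 0.73.

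Serpinh1 and Mmp14 had the most counts of the list. Mmp14, the membrane-anchored protease that activates Mmp2, was at 162, 150 and 151 CPM in Con, 132, 131 and 125 CPM in Exo, and 123, 129 and 132 CPM in pLV-Exo-Wnt5a. Con lay above both exosome groups without overlap. The log2FC was −0.26 ± 0.07 in Exo against Con (edgeR, adjusted p = 0.265), −0.28 ± 0.08 in pLV-Exo-Wnt5a against Con (0.434) and 0.00 ± 0.06 between the exosome groups (0.993).

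Serpinh1, the collagen chaperone HSP47, was at 228, 193 and 185 CPM in Con, 173, 157 and 162 CPM in Exo, and 174, 152 and 191 CPM in pLV-Exo-Wnt5a. Exo lay below Con with a log2FC of −0.31 ± 0.09 (edgeR, adjusted p = 0.265), and pLV-Exo-Wnt5a overlapped both.

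Igfbp3, which binds insulin-like growth factors, was at 39.6, 40.2 and 35.3 CPM in Con, 36.5, 34.5 and 36.7 CPM in Exo, and 41.8, 39.8 and 38.4 CPM in pLV-Exo-Wnt5a. The exosome groups did not overlap, and the log2FC between them was 0.17 ± 0.07 (edgeR, adjusted p = 0.383). Mmp2, the gelatinase of fibroblasts, ranged from 4.02 to 5.60 CPM and Igfbp7, a secreted protein of vessel walls, from 1.29 to 2.80 CPM, with overlapping groups.

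**Figure D2:**
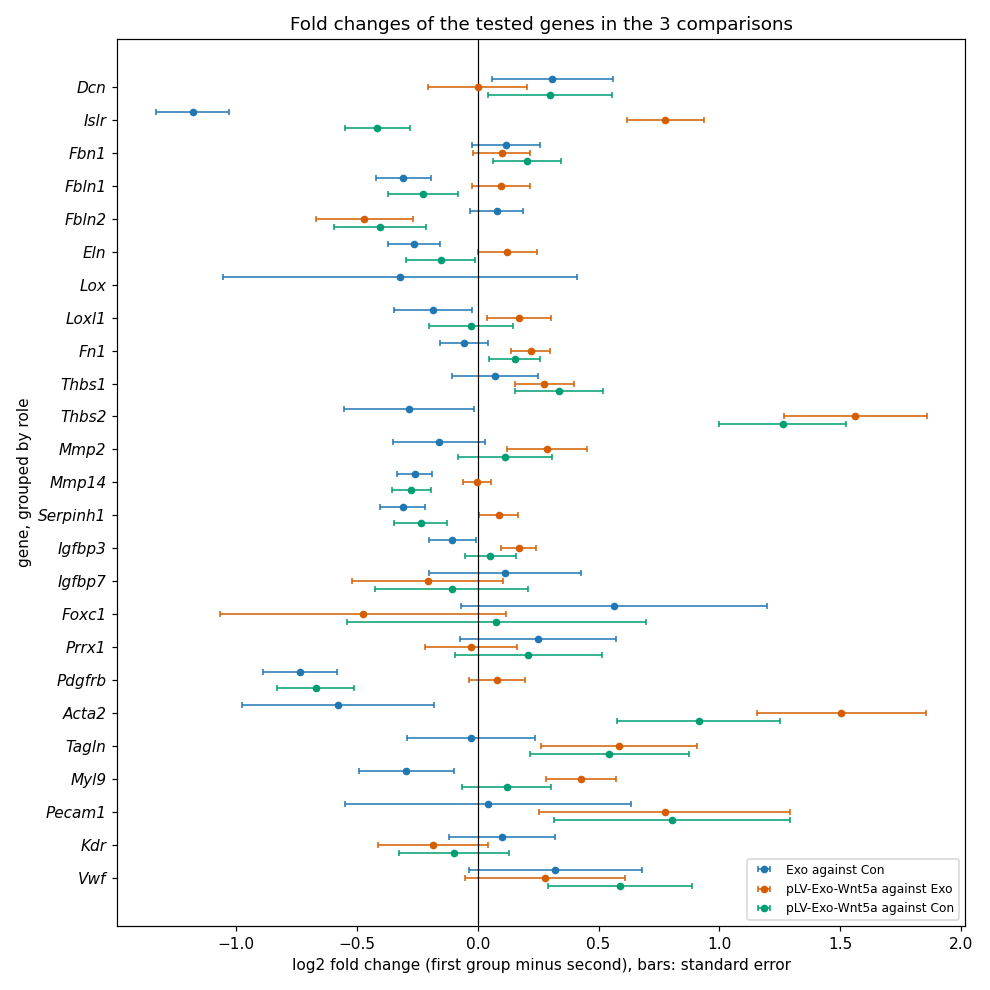
The log2FC (horizontal axis, first group minus second) of the 25 genes that passed the low-count filter in at least 1 comparison (vertical axis, grouped by role), with bars for the standard error and 1 colour per comparison. Islr and Pdgfrb lie left of 0 in Exo against Con, and Thbs2 and Acta2 lie right of 0 in both comparisons of pLV-Exo-Wnt5a.

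Mesenchymal transcription factors were low, except for Prrx1. Prrx1, a homeobox factor of limb and stromal mesenchyme, ranged from 3.14 CPM (Con replicate 1) to 9.16 CPM (Con replicate 3), so that the spread within Con covered the Exo and pLV-Exo-Wnt5a libraries. Foxc1, a forkhead factor of the meninges, had 4 to 21 counts per library, and its log2FC had a standard error of at least 0.59 in each comparison. Foxd1, a factor of pericyte precursors, had 1 to 18 counts, Twist1 0 to 4 and Tbx18 0 to 4, and none of these was tested.

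Of the endothelial genes, Kdr, Vwf and Pecam1 were counted in every library, and Flt1, Cldn5 and Cdh5 were not. Kdr, the main receptor of vascular endothelial growth factor, was at 5.06, 6.68 and 4.75 CPM in Con, 7.60, 4.65 and 5.56 CPM in Exo, and 5.32, 3.77 and 6.37 CPM in pLV-Exo-Wnt5a. The groups overlapped, with log2FCs between −0.18 and 0.10 and adjusted p-values of at least 0.813 by edgeR.

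Vwf, the gene of von Willebrand factor, was at 1.09, 1.34 and 0.974 CPM in Con, 1.91, 0.817 and 1.57 CPM in Exo, and 1.74, 1.89 and 1.53 CPM in pLV-Exo-Wnt5a. Pecam1, the adhesion molecule CD31, was at 0.259, 0.205 and 0.426 CPM in Con, 0.465, 0.124 and 0.328 CPM in Exo, and 0.555, 0.438 and 0.557 CPM in pLV-Exo-Wnt5a, on 5 to 23 counts. For both genes each pLV-Exo-Wnt5a library lay above every Con library, while the Exo libraries overlapped both groups. The log2FC of pLV-Exo-Wnt5a against Con was 0.59 ± 0.30 for Vwf (edgeR, adjusted p = 0.632) and 0.80 ± 0.49 for Pecam1 (0.665).

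Flt1, another receptor of vascular endothelial growth factor, had 5, 1 and 1 counts in Con, 1, 0 and 0 in Exo, and 0, 1 and 9 in pLV-Exo-Wnt5a. Cldn5, the tight junction protein claudin 5 of the blood-brain barrier, was at 0 in 6 libraries and reached 4 counts in pLV-Exo-Wnt5a replicate 3. The single count of Cdh5 was in Exo replicate 2. These genes were not tested, and differences between groups were not detectable at this depth.

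**Figure D3:**
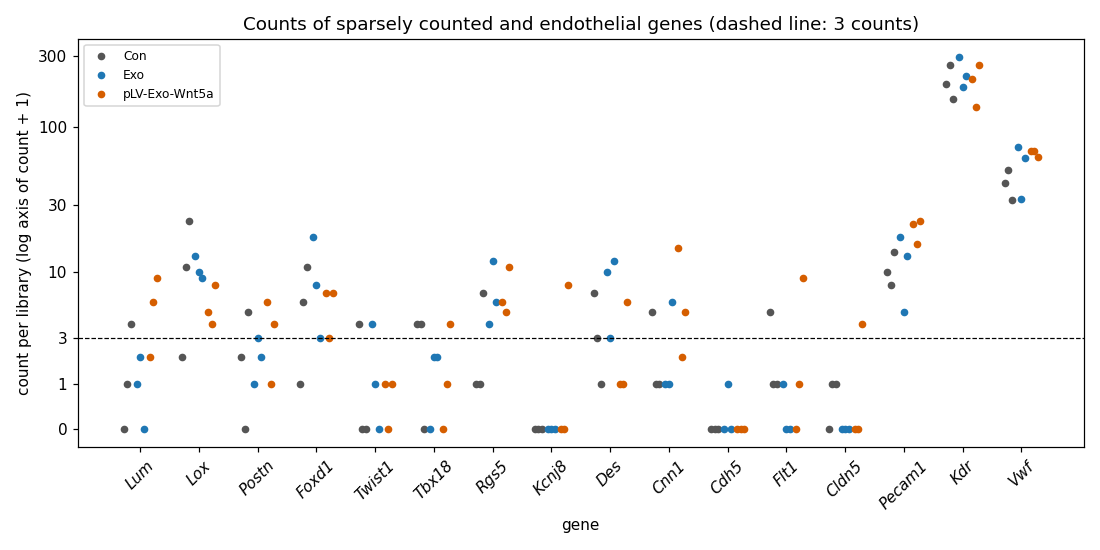
Counts per library (vertical axis, a log scale of the count plus 1) of the 13 genes that failed the low-count filter in at least 1 comparison and of Pecam1, Kdr and Vwf (horizontal axis), coloured by group. The dashed line marks 3 counts. Cdh5 stays at 0 or 1 count, Kcnj8 leaves 0 in pLV-Exo-Wnt5a replicate 3, and Kdr lies between 138 and 294 counts.

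The levels were also summed by role. Leucine-rich genes, of which Islr made up 88.7%, summed to 37.1 ± 1.88 CPM in Con, 18.6 ± 2.39 in Exo and 29.4 ± 4.24 in pLV-Exo-Wnt5a. Adhesive glycoproteins, of which Fn1 made up 74.1%, summed to 58.1 ± 5.87, 56.7 ± 2.99 and 70.6 ± 3.77 CPM, and the lowest pLV-Exo-Wnt5a library (66.8) lay above the highest library of the other groups (64.6). Mural genes summed to 28.9 ± 5.00 CPM in Con, 20.4 ± 0.81 in Exo and 25.2 ± 1.25 in pLV-Exo-Wnt5a. Pdgfrb made up 51.5% of this sum, and Exo lay below both other groups in every library. Proteases, the chaperone and IGF-binding proteins summed to 401 ± 31.9, 336 ± 9.72 and 348 ± 20.5 CPM, and the lowest Con library (376) lay above every exosome library (at most 369). Elastic fibre genes, of which Fbln2 made up 41.6%, summed to 166 ± 8.06, 157 ± 16.5 and 142 ± 29.6 CPM, lower in pLV-Exo-Wnt5a than in Exo although 4 of the 5 tested genes had a log2FC above 0 there. Transcription factors, of which Prrx1 made up 92.3%, summed to 6.60 ± 3.16, 7.93 ± 2.00 and 7.46 ± 1.45 CPM, and the groups overlapped. Endothelial genes, of which Kdr made up 74.7%, summed to 7.005 ± 1.11, 7.69 ± 2.20 and 7.50 ± 1.32 CPM, which overlapped. All 37 genes together, led by Serpinh1, summed to 674 to 747 CPM in Con, 580 to 638 in Exo and 579 to 674 in pLV-Exo-Wnt5a.

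**Figure D4:**
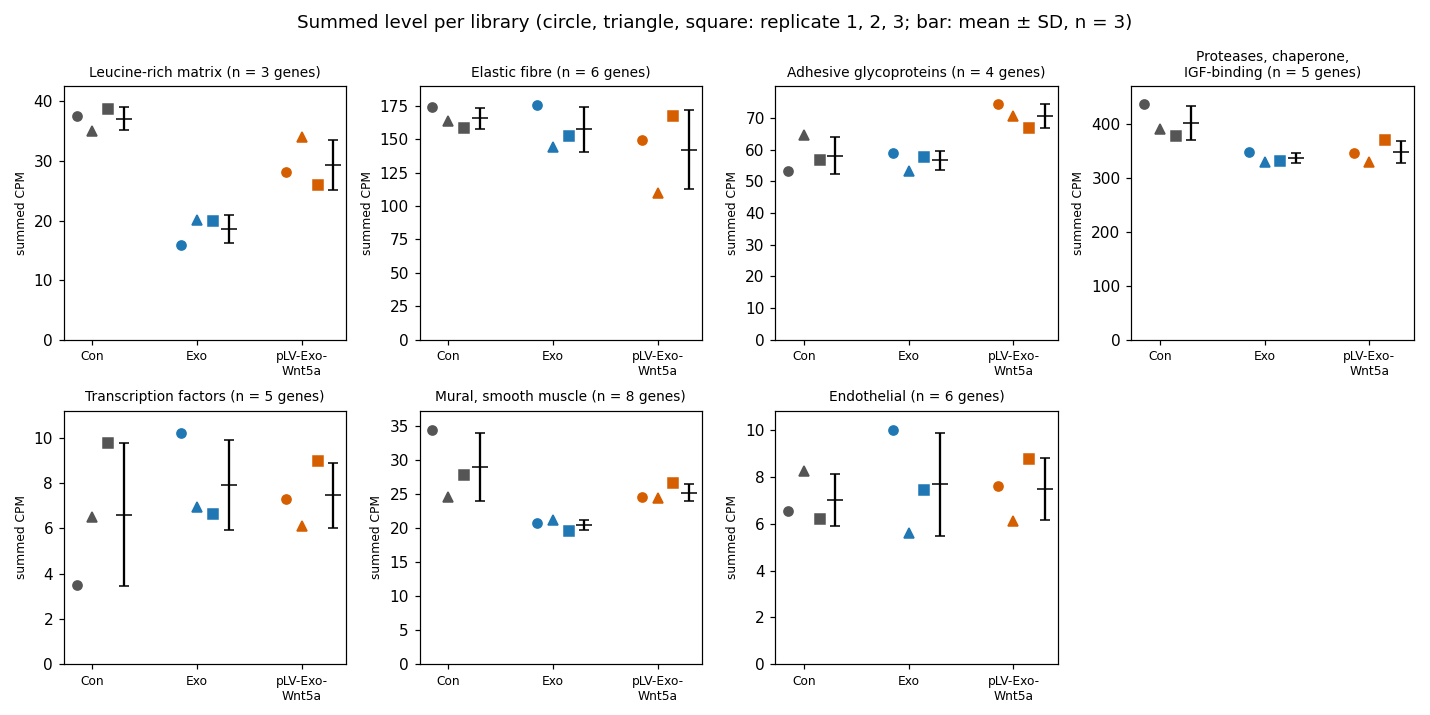
Summed level in CPM (vertical axis, linear from 0) of the genes of each role, by group (horizontal axis). Points are single libraries and black bars the mean ± SD of 3. The adhesive glycoproteins are highest in the 3 pLV-Exo-Wnt5a libraries, and the endothelial sums of the groups overlap, with Con (6.21 to 8.27 CPM) inside the range of Exo (5.62 to 9.999 CPM).

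Certain libraries were high or low for many of these genes within their group. Of the 24 genes tested in all comparisons, Exo replicate 1 was the highest of its group for 16, as it was for 41.3% of all genes, and Exo replicate 2 the lowest for 15 (34.0% of all genes). Con replicate 3 was lowest for 12 (35.7%), pLV-Exo-Wnt5a replicate 3 highest for 14 (37.2%) and pLV-Exo-Wnt5a replicate 2 lowest for 13 (36.9%). Leaving out single libraries moved the count of genes with an unadjusted p under 0.05 to 4 to 7 in Exo against Con and to 5 to 9 in pLV-Exo-Wnt5a against Exo. In the latter it was 5, against 8 with all libraries, without Exo replicate 1, Exo replicate 3 or pLV-Exo-Wnt5a replicate 1. In pLV-Exo-Wnt5a against Con it was 5 to 8, with 8 reached without Con replicate 3.

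Further genes of the same cell types and of the TGF-β pathway, which drives matrix and contractile genes in fibroblasts, were examined as a wider list. Of 88 such genes, 85 had a row and 51 were tested. None was called by edgeR in any comparison, whereas DESeq2 called 2 of 39, 3 of 51 and 0 of 53 genes with an adjusted p, beside its shares of all genes given above. Before adjustment, at p under 0.05, 9 differed in Exo against Con (2 higher and 7 lower), 13 in pLV-Exo-Wnt5a against Exo (8 higher and 5 lower) and 3 in pLV-Exo-Wnt5a against Con (1 higher and 2 lower). These are 17.6%, 25.5% and 5.88% of the 51 genes, beside 14.9%, 12% and 8.35% of all genes. Their median log2FC was −0.08, 0.04 and 0.02.

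By group, the further fibroblast and meningeal genes had a median log2FC of −0.27 over 18 tested genes in Exo against Con and 0.23 in pLV-Exo-Wnt5a against Exo, with 3 lower at an unadjusted p under 0.05 in the first and 4 higher and 2 lower in the second. In pLV-Exo-Wnt5a against Con their median was 0.01, with 1 higher. For the 11 further mural genes the medians were −0.13, 0.04 and −0.09 in the 3 comparisons. The 7 further endothelial genes that were tested included 0 with an unadjusted p under 0.05 in any comparison. At the same threshold, 4 of 15 TGF-β pathway genes (26.7%) differed in Exo against Con, 2 higher and 2 lower, and 4 in pLV-Exo-Wnt5a against Exo, again 2 and 2, beside 14.9% and 12% of all genes. In pLV-Exo-Wnt5a against Con the count was 0 of 15, beside 8.35%.

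The smallest p-values of this wider list in pLV-Exo-Wnt5a against Exo belonged to Timp1, an inhibitor of matrix proteases, Sparc, a matricellular glycoprotein, and Notch3, the Notch receptor of mural cells. Timp1 was at 0.749, 0.520 and 0.783 CPM in Exo and 2.47, 1.67 and 1.77 CPM in pLV-Exo-Wnt5a, beside 1.14, 0.899 and 1.25 CPM in Con, which lay between them without overlap. Its log2FC against Exo was 1.54 ± 0.32 (edgeR, adjusted p = 0.0691) and against Con 0.84 ± 0.31 (0.529). Sparc differed by 0.36 ± 0.09 (0.116) and Notch3 by 0.32 ± 0.08 (0.118) between pLV-Exo-Wnt5a and Exo.

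In Exo against Con the smallest p-values were those of Notch3, with a log2FC of −0.47 ± 0.11, Mfap2, a microfibril protein, with −0.50 ± 0.13, and Heyl, a target of Notch signalling in mural cells, with −1.05 ± 0.31, each at an adjusted p of 0.265 by edgeR. Notch3 was at 249, 195 and 203 CPM in Con, 168, 140 and 163 CPM in Exo, and 194, 180 and 208 CPM in pLV-Exo-Wnt5a. Exo lay below every library of the other groups. In pLV-Exo-Wnt5a against Con, Heyl had a log2FC of −1.49 ± 0.44 (edgeR, adjusted p = 0.434) on levels of 1.01, 0.301 and 1.11 CPM against 3.17, 1.75 and 1.92 CPM. Cspg4, the proteoglycan NG2 of pericytes and oligodendrocyte precursors, had −0.29 ± 0.11 (0.541).

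Markers of other cells were measured beside these genes. Neural stem cell markers (Nes, Sox2, Msi1 and Fabp7) summed to 1189 to 1532 CPM over the 9 libraries. Neuron markers summed to 2031 to 2229 CPM in Con, 1959 to 2281 CPM in Exo and 1799 to 2358 CPM in pLV-Exo-Wnt5a. Tubb3 made up 84.3% of this sum. At an unadjusted p under 0.05, 2 of the 4 were higher in Exo than in Con, beside 8.92% of all genes. In pLV-Exo-Wnt5a against Exo 2 were lower, beside 6.91% of all genes, and 1 of them was called (edgeR, adjusted p = 0.0113). In pLV-Exo-Wnt5a against Con the count was 0. Oligodendrocyte lineage markers summed to 929 to 1047 CPM in Con, 826 to 888 CPM in Exo and 837 to 933 CPM in pLV-Exo-Wnt5a, so that Exo lay below Con without overlap, as for Pdgfrb, Mmp14 and Notch3.

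Astrocyte markers summed to 3701 to 4541 CPM in Con, 3555 to 3653 CPM in Exo and 5330 to 5579 CPM in pLV-Exo-Wnt5a, and so stood highest in the same group as Thbs2, Acta2 and Timp1. Gfap made up 67.5% of this sum. Of the 5 astrocyte markers, 2 were higher and 3 lower in pLV-Exo-Wnt5a than in Exo, with a median log2FC of −0.15. One of the higher markers, Gfap, was called, with a log2FC of 0.86 (edgeR, adjusted p = 3.36e-05), and 1 more was higher and 1 lower at an unadjusted p under 0.05. The part of these markers in the results was not tested.

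Genes used as markers of the marrow stroma, the source of the donor cells, summed to 135 to 143 CPM in Con, 117 to 125 CPM in Exo and 130 to 159 CPM in pLV-Exo-Wnt5a, and Vcam1 made up 60.4% of the sum. Lepr, a defining marker of that stroma, had at most 4 counts in any library and Runx2 at most 51. Of the 5 markers tested, 3 had a log2FC above 0 in Exo against Con, with a median of 0.07. In pLV-Exo-Wnt5a against Exo it was 1, with a median of −0.04, and in pLV-Exo-Wnt5a against Con 4, with a median of 0.27. At an unadjusted p under 0.05, 1 was lower in the first comparison (6.01% of all genes) and 1 higher in the second (5.07%). In the third 1 was higher (4.2%) and 1 lower (4.15%). RNA from the exosomes and RNA made by the NSCs cannot be told apart in these libraries.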

How the data were processed

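RNA-seq libraries of cultured NSCs were analysed (Con, Exo and pLV-Exo-Wnt5a, n = 3 each). The deposited values are raw counts in whole numbers for each gene. The study's methods name HISAT2, whereas the submitters' processing notes name Bowtie2, RSEM 1.3.1 and DESeq2 1.4.5, so the aligner is uncertain. The genome build and annotation are not given in the sources used here. Library names tied columns to samples.

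For each comparison of 6 libraries, low counts were filtered with filterByExpr, TMM factors computed and a quasi-likelihood model fitted in edgeR 4.0.16 (R 4.3.3), with Benjamini-Hochberg adjustment over all genes tested. DESeq2 1.42.0 was an alternative, as were RLE normalization, other filters, a fit on all 9 libraries, a replicate block, a fold limit of 2 and leaving out each library. Both tests were tried on simulated data first. Total counts of 32765138 to 40427647 put 3 counts at 0.0727 to 0.0913 CPM.

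The 38 genes and the other lists were chosen with earlier results of these data known. All 38 are accounted for, and test statistics are given where the unadjusted p was under 0.05 in a comparison, and for endothelial genes. Of the wider list, the 3 genes with the smallest p per comparison are named, since the main edgeR test called none. Lox and Foxc1 are given test values outside that rule, chosen for their role. The other genes outside it are given by their levels or counts. Promoter sequence came from RefSeq (GRCr8).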

Additional observations from a re-analysis of the deposited data

How the results depend on the processing

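The numbers of the 38 genes called at an adjusted p under 0.05 were 0 by edgeR in the 3 comparisons and depended on the setting. DESeq2 called 2 in Exo against Con (Islr and Pdgfrb), 3 in pLV-Exo-Wnt5a against Exo (Thbs2, Islr and Acta2) and 2 in pLV-Exo-Wnt5a against Con (Thbs2 and Pdgfrb), and edgeR without the low-count filter called the same numbers, 2, 3 and 2, and the same genes. A fit on all 9 libraries called 1 in Exo against Con (Islr). Leaving out single libraries gave 0 to 2 calls in Exo against Con, 0 to 1 in pLV-Exo-Wnt5a against Exo and 0 in pLV-Exo-Wnt5a against Con. Of the wider list, DESeq2 called 2 genes in Exo against Con (Mfap2 and Notch3) and 3 in pLV-Exo-Wnt5a against Exo (Notch3, Sparc and Timp1). Without the low-count filter the counts were 3, 3 and 1, and leaving out single libraries gave 0 to 1 in each of the first 2 comparisons (Notch3 without Con replicate 3, Sparc without pLV-Exo-Wnt5a replicate 2). The cause of these differences was not tested. RLE normalization and a minimum of 10 counts in every library left the counts at 0, and the fold limit, which can only remove calls, could not be judged. Counts at an unadjusted p under 0.05 ran from 4 to 7, 5 to 9 and 5 to 8 when single libraries were left out. Of 228 refits of single genes, 0 reversed direction and 23 passed the threshold that the reported test missed.

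With the replicate number as a block, 2 of the 38 genes were called in pLV-Exo-Wnt5a against Exo (Thbs2 and Islr) and 1 in pLV-Exo-Wnt5a against Con (Thbs2), against 0 without the block. Libraries with the same number did not deviate together over all genes, with correlations across genes of −0.20 to 0.063 over 9 pairs. Such correlations cannot tell whether those libraries shared a culture or animal, which the labels do not say.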
